A study of Mus musculus with 23 samples.

Results

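The 10 genes described here supply, produce or limit nitric oxide: the synthases Nos2 and Nos3, the cofactor enzyme Gch1, the citrulline recycling enzymes Ass1 and Asl, the arginase Arg2, the dimethylarginine hydrolases Ddah1 and Ddah2, and the cationic amino acid transporters Slc7a1 and Slc7a2. They were chosen by name among 55487 gene identifiers, and each of the 10 names matched 1 protein-coding identifier. Transcripts were measured in poly-A RNA of whole hearts of female wild-type mice of the inbred strain C57BL/6J at an age of 10 weeks. Mice of the first arm were given 300 mg/kg isoproterenol (ISO), which stimulates beta-adrenergic receptors, and mice of the second arm 2.5 mg/kg lipopolysaccharide (LPS), an endotoxin from the outer membrane of Gram-negative bacteria sensed by Toll-like receptor 4. Hearts were collected 1 day and 7 days later. Each arm also had untreated hearts of its own, called ISO baseline and LPS baseline. There were 23 libraries, 4 in every group except ISO day 1, which had 3. No vehicle-injected group was analysed here, so the agents cannot be told apart from the injection itself.

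Nitric oxide synthases convert arginine and oxygen to nitric oxide and citrulline, with tetrahydrobiopterin as a cofactor. Citrulline can be turned back into arginine by argininosuccinate synthase and lyase, while arginases divert arginine to ornithine and the polyamines. Methylated arginines released from proteins inhibit the synthases and are broken down by the dimethylarginine hydrolases. In the heart the endothelial synthase is the best known source, and the inducible synthase is known from macrophages and other cells exposed to bacterial products.

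The libraries held 20910394 to 30368985 estimated reads in genes, of which 22.3% to 29.3% came from mitochondrially encoded transcripts. All 8 cardiomyocyte markers were detected in every group, with summed levels of 28400 to 56300 TPM over the libraries; TPM is an abundance scaled to transcript length and library total. Replicate 3 of ISO day 7 stood apart from the rest of its group: its 8 fibroblast markers summed to 965 TPM against 304 to 401 TPM in the other libraries, and its 10 macrophage markers to 380 TPM against 149 to 187 TPM. The labels do not pair libraries across groups. Differences between groups were tested with edgeR over 15732 genes and are log2 changes ± SE, called at a Benjamini-Hochberg adjusted p under 0.05. Arg2 had too few reads for this test, so 9 of the 10 genes were tested. In whole tissue, fewer cells of a type and less RNA per cell cannot be told apart.

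In untreated hearts the transporter Slc7a1 and the hydrolase Ddah2 were the most abundant of the 10 genes on the TPM scale. At ISO baseline their mean levels were 10.9 ± 1.99 TPM (SD, n = 4) and 10.2 ± 0.808 TPM (SD, n = 4), and their libraries overlapped. Nos3 followed at 7.97 ± 1.11 TPM (SD, n = 4). Its highest library, 8.82 TPM, lay below the lowest Ddah2 library, 9.55 TPM. A lower tier held Nos2 at 3.45 TPM, Asl at 2.79 TPM, Gch1 at 2.42 TPM, Ddah1 at 2.0 TPM and Ass1 at 1.72 TPM, and within it each neighbouring pair overlapped between libraries. Slc7a2 averaged 0.545 TPM, below every Ass1 library, and Arg2 averaged 0.017 TPM. Between LPS baseline and ISO baseline edgeR called 0 of the 9 tested genes, against 1.21% of all genes. At an unadjusted p under 0.05, Slc7a1 and Slc7a2 were lower at LPS baseline, by edgeR, with adjusted p of 0.3452 and 0.3157. DESeq2 called 0 of the 9.

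**Figure D1:**
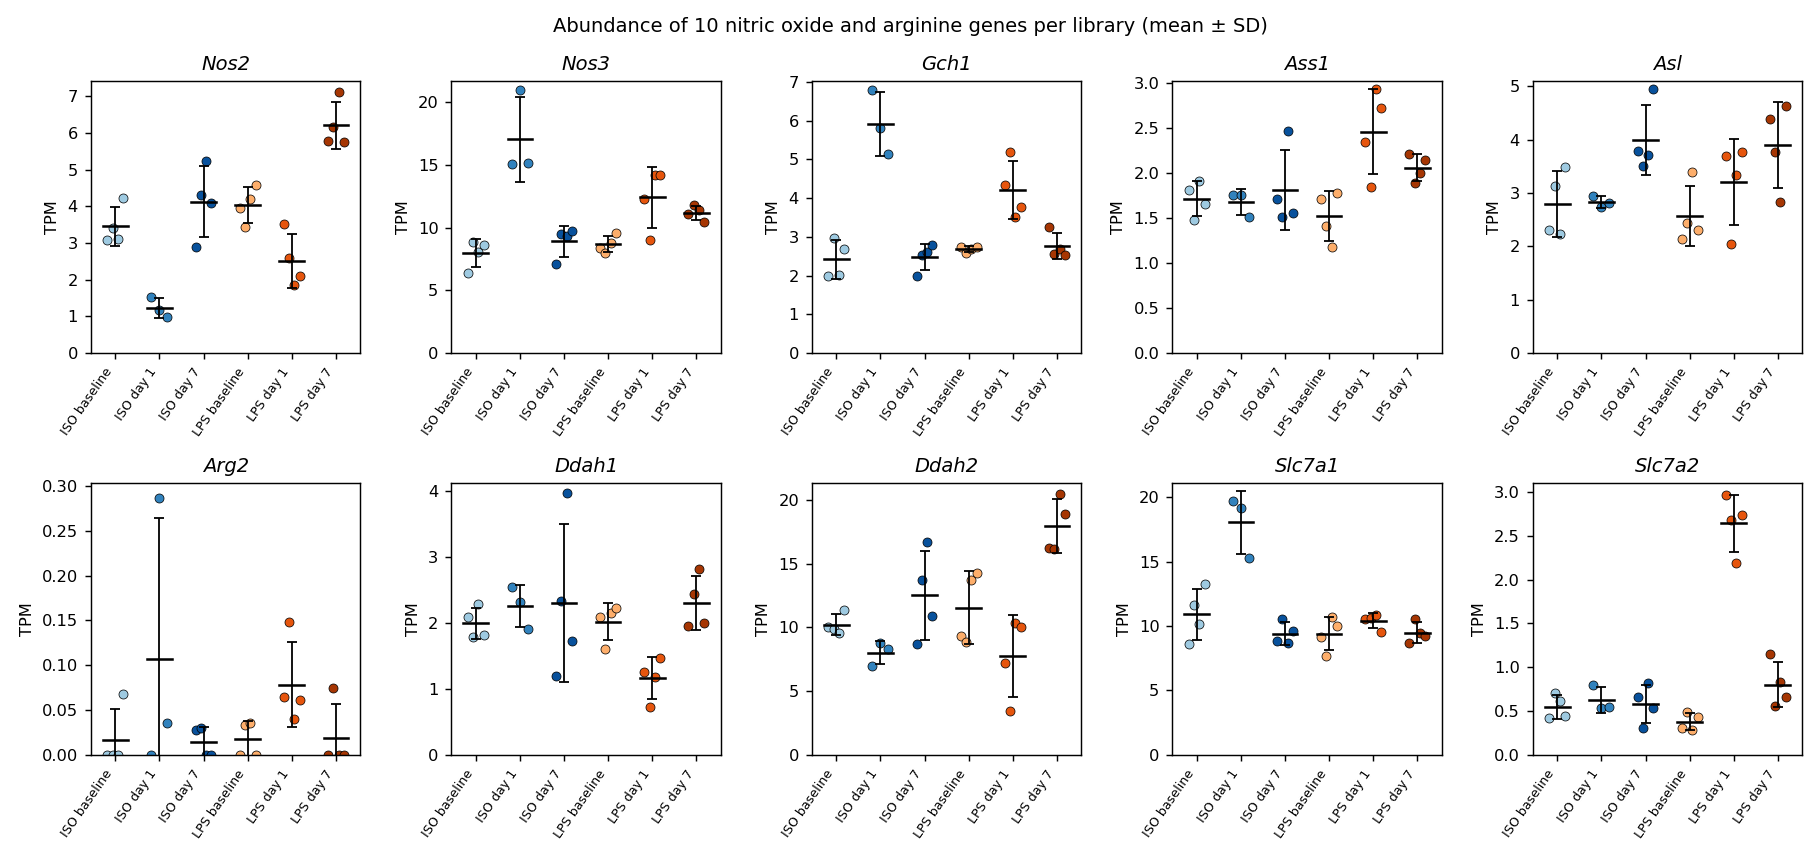
TPM of each of the 10 genes on a linear axis from 0, by group, with 1 point per library and bars for mean ± SD. The 3 ISO day 1 libraries of Nos2 sit at 0.985 to 1.52 TPM, below every other library, and the 4 LPS day 1 libraries of Slc7a2 sit at 2.19 to 2.97 TPM, above every other library.

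At ISO day 1, transcripts of Nos3, Gch1 and Slc7a1 were 1.63 to 2.40 times their baseline level and those of Nos2 had fallen to 0.354 of it. At LPS day 1 the same directions were found for Nos3, Gch1 and Nos2, while Slc7a2 was raised 7.7-fold, Ass1 was raised and both hydrolases were lower. By day 7 after ISO none of the 9 tested genes was called against baseline, beside 0.00636% of all genes. By day 7 after LPS only Slc7a2 was called, beside 9.10% of all genes. At ISO day 1, 5 of the 9 were called (4 higher, 1 lower), a share of 55.6% beside 65.7% of all genes tested (32.9% higher, 32.8% lower). At LPS day 1, 7 of the 9 were called (4 higher, 3 lower), which is 77.8% beside 66.2% of all genes (33.2% higher, 33.0% lower). Both shares lie near the background, so the counts are not a result about these genes; what follows is the size and direction of each. The median log2 change of the 9 genes was 0.33 at ISO day 1 and 0.19 at LPS day 1, beside -0.02 and 0.00 over all genes. Nos2, Nos3 and Gch1 were called in the same direction after both agents, 33.3% of the 9 beside 44.1% of all genes.

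**Figure D2:**
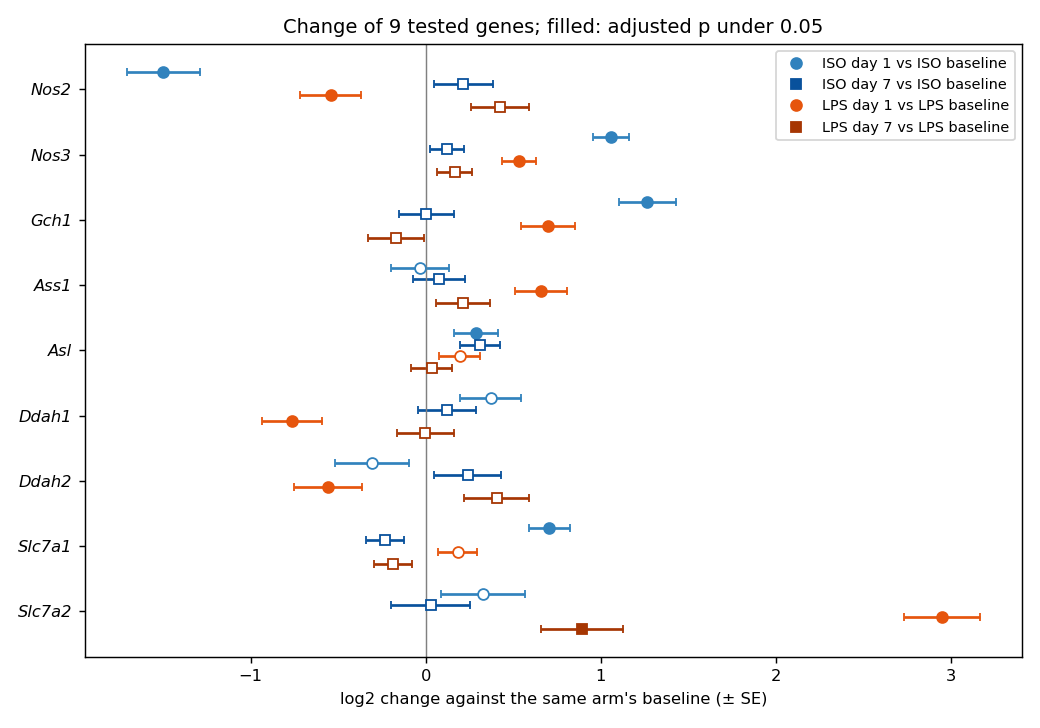
Log2 change ± SE of the 9 tested genes against the baseline of the same arm, with circles for day 1, squares for day 7 and filled symbols for adjusted p under 0.05. Nos2 lies left of 0 and Nos3 and Gch1 right of 0 at day 1 in both arms, and the LPS day 1 value of Slc7a2, 2.95, lies farthest from 0.

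Nos2 (ENSMUSG00000020826, mm10 chr11:78920787-78960254, plus strand) encodes the inducible nitric oxide synthase. Its ISO baseline libraries held 3.07, 3.42, 3.10 and 4.22 TPM, and its ISO day 1 libraries held 1.52, 1.18 and 0.985 TPM. Every day 1 library was therefore below every baseline library. Nos2 fell by 1.5 ± 0.21 on the log2 scale (edgeR adjusted p = 1.296e-06). After LPS the 4 baseline libraries held 3.95, 3.43, 4.2 and 4.58 TPM, and those of day 1 held 3.52, 2.59, 1.86 and 2.09 TPM. Only replicate 1 of day 1 reached into the baseline range. The decrease was smaller than after ISO, at -0.54 ± 0.17 (adjusted p = 0.008715), and the 2 changes differed by 0.96 ± 0.27 (interaction, adjusted p = 0.007115), a difference that lost its call on the log2(TPM + 0.1) scale (adjusted p = 0.0532). A rise of Nos2 was thus not seen at day 1 after LPS in these hearts; earlier times were not sampled.

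At day 7 after LPS, Nos2 stood at 5.79, 6.17, 7.11 and 5.75 TPM, all above the highest baseline library. The change of 0.43 ± 0.17 did not pass the test (adjusted p = 0.12), although it was called with library totals as the scaling (0.58, adjusted p = 0.0248), on the log2(TPM + 0.1) scale (0.61, adjusted p = 0.03641) and with the compared groups fitted alone (adjusted p = 0.00551). Library totals moved the median of all genes by 0.16 in this comparison, and the TPM scale by 0.20. At ISO day 7 the libraries ranged from 2.89 to 5.23 TPM and overlapped the baseline.

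Summed macrophage markers, like Nos2, were lower at day 1 in both arms, but the sizes ran in the opposite order. Mean sums were 0.698 of baseline after ISO and 0.431 after LPS, against 0.354 and 0.687 for Nos2 by edgeR. The macrophage sums ran from 162 to 194 TPM at ISO baseline and from 120 to 133 TPM at ISO day 1. Of the 10 markers, 1 was called higher and 5 lower. In the LPS arm the sums ran from 167 to 212 TPM at baseline and from 71.4 to 94.2 TPM at day 1. There too, 1 marker was called higher and 5 lower. At LPS day 7 the sums ran from 359 to 454 TPM, and 9 of 10 markers were called higher. Cardiomyocyte marker sums were also lower at day 1, at 0.735 of baseline after ISO and 0.665 after LPS. At LPS day 7 they were 1.11 times baseline on the TPM scale. By edgeR, 0 of the 8 cardiomyocyte markers were called higher and 1 lower there, with a median log2 change of -0.11. Neutrophil markers moved the other way at day 1, from at most 0.647 TPM to 9.28 to 22.7 TPM after ISO and from at most 0.968 TPM to 16.4 to 26.7 TPM after LPS. None of these sums differed at an adjusted p under 0.103 over 36 exact two-sided permutation tests, whose smallest possible p is 0.05714 for 3 against 4 libraries and 0.02857 for 4 against 4. The part of these cells in the Nos2 levels was not tested.

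Nos3 (ENSMUSG00000028978, chr5:24364810-24384474, plus strand) encodes the endothelial synthase. At ISO baseline it held 6.38, 8.82, 8.06 and 8.62 TPM, against 15.1, 20.9 and 15.1 TPM at ISO day 1. The groups did not overlap, and Nos3 rose by 1.06 ± 0.10 (adjusted p = 7.104e-09), to 2.08 times the baseline level. The LPS libraries held 8.38, 8.00, 8.80 and 9.57 TPM at baseline and 12.3, 9.02, 14.2 and 14.2 TPM at day 1. Replicate 2 of LPS day 1 lay within the baseline range and the other 3 above it. The rise was 0.53 ± 0.10 (adjusted p = 4.628e-05), which was smaller than after ISO by 0.53 ± 0.14 (interaction of -0.53 on the log2 scale, adjusted p = 0.005425). At day 7 Nos3 was not called against baseline in either arm, with changes of 0.12 (adjusted p = 0.9693) after ISO and 0.16 (adjusted p = 0.3343) after LPS.

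Nos3 exons share 294 identical bases with Atg9b and 169 with the antisense gene Gm15587, both of which overlap it. Atg9b held 5.06 to 40.1 reads per library and fell at day 1 in both arms, by 1.24 after ISO (adjusted p = 0.001886) and by 1.27 after LPS (adjusted p = 0.0005446). Gm15587 held 2.05 to 18.7 reads. Reads of Nos3 and of these 2 genes cannot be fully told apart without a stated strand setting. The 10 endothelial markers summed to 271 to 326 TPM at ISO baseline and 362 to 449 TPM at ISO day 1 (5 called higher, 2 lower), and to 298 to 346 TPM at LPS baseline and 322 to 396 TPM at LPS day 1 (4 higher, 3 lower), with adjusted p of 0.114 and 0.257 for the sums by the exact permutation test. Relative to that sum, Nos3 was 2.65% ± 0.208 (SD, n = 4) in ISO baseline hearts and 4.19% ± 0.461 (SD, n = 3) on day 1. The corresponding LPS values were 2.71% ± 0.136 (SD, n = 4) and 3.52% ± 0.56 (SD, n = 4). This ratio was given no test, its denominator holds markers that were called in both directions, and the part of endothelial cells in the Nos3 levels was not tested.

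The Nos2 part of the synthase transcripts was low at day 1 in both arms. It made up 30.3% ± 2.78 (SD, n = 4) of the summed Nos2 and Nos3 TPM at ISO baseline and 6.88% ± 2.02 (SD, n = 3) at ISO day 1. After LPS it went from 31.7% ± 1.13 (SD, n = 4) to 17.2% ± 5.82 (SD, n = 4), where replicates 1 and 2 held 22.2% and 22.3% and replicates 3 and 4 held 11.6% and 12.8%. At day 7 it stood at 31.4% ± 3.18 (SD, n = 4) after ISO and 35.7% ± 1.92 (SD, n = 4) after LPS. These proportions describe the transcripts and were given no test of their own. The neuronal synthase Nos1 had too few reads to be tested.

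**Figure D3:**
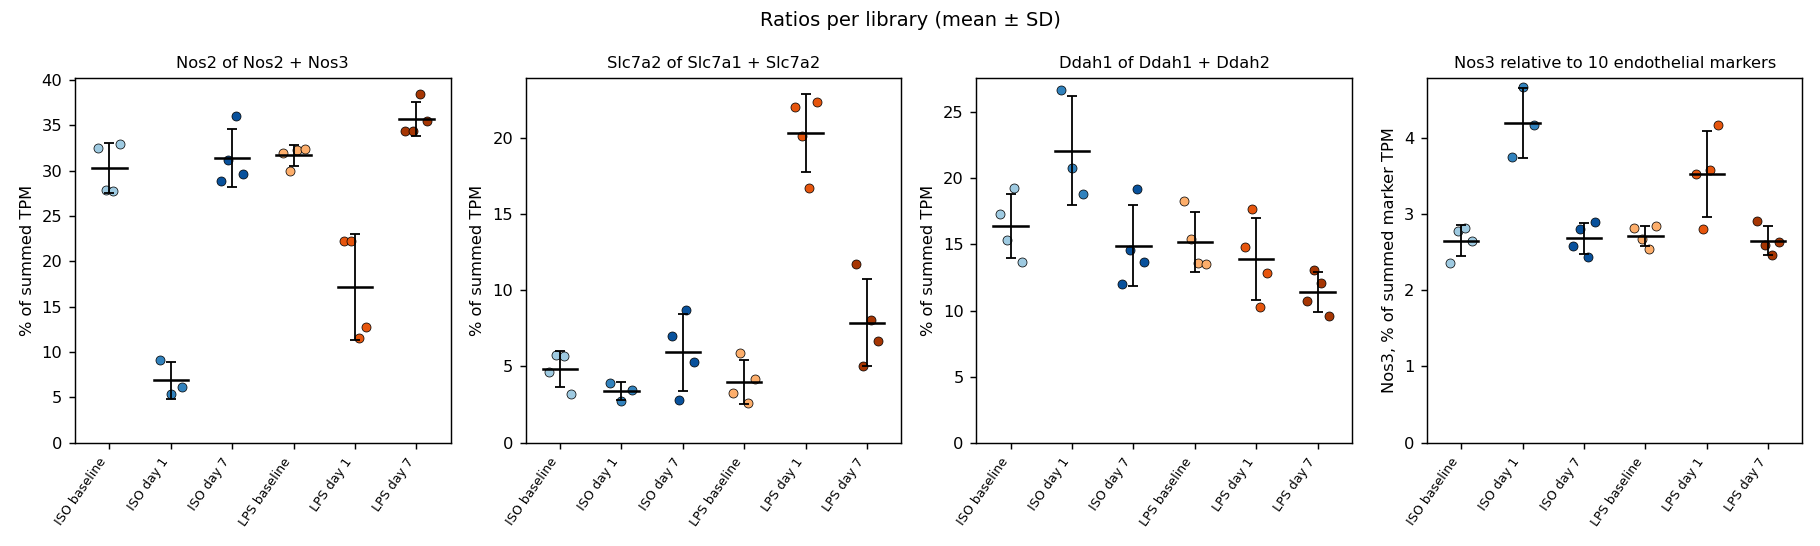
Ratios between genes in each library on linear axes from 0, with bars for mean ± SD: the Nos2 part of synthase TPM, the Slc7a2 part of transporter TPM, the Ddah1 part of hydrolase TPM, and Nos3 as a percentage of summed endothelial marker TPM. Nos2 drops to 6.88% at ISO day 1 and Slc7a2 reaches 20.3% at LPS day 1.

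Gch1 (ENSMUSG00000037580, chr14:47153895-47189413, minus strand) encodes GTP cyclohydrolase, the first and rate-limiting enzyme of tetrahydrobiopterin synthesis. It held 1.99, 2.98, 2.02 and 2.68 TPM at ISO baseline and 6.78, 5.82 and 5.13 TPM at ISO day 1. The 3 day 1 libraries were above every library of the other groups, except that LPS day 1 replicate 2 (5.20 TPM) exceeded the lowest of them. The rise was 1.26 ± 0.16 (adjusted p = 4.383e-07), the largest increase among the 9 genes in that comparison. After LPS it went from 2.73, 2.57, 2.69 and 2.73 TPM to 4.34, 5.20, 3.53 and 3.76 TPM, with no overlap. That change was 0.70 ± 0.15 (adjusted p = 0.0003478). The difference between the agents, -0.57 ± 0.22, missed the threshold (adjusted p = 0.05014) and passed it under 8 of the alternatives, among them DESeq2 (adjusted p = 0.04668) and leaving out LPS day 1 replicate 2 (adjusted p = 0.002482). Per unit of summed synthase TPM, Gch1 was 0.211 at ISO baseline and 0.330 at ISO day 1, and 0.212 and 0.293 in the LPS arm. At day 7 it was back at 2.48 ± 0.336 TPM (SD, n = 4) after ISO and 2.76 ± 0.336 TPM (SD, n = 4) after LPS.

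Of the 7 genes of tetrahydrobiopterin synthesis and recycling, all tested, Gch1 alone was called higher and 5 were called lower at day 1 of each arm, beside 32.8% of all genes called lower after ISO and 33.0% after LPS. Pcbd1, a recycling enzyme, was not called in either arm (-0.71 after ISO and 0.25 after LPS, adjusted p = 0.1487 and 0.6124). The list had medians of -0.71 after ISO and -0.48 after LPS beside -0.02 and 0.00 over all genes. Pts, which makes the next intermediate, fell by 0.96 ± 0.11 after ISO (adjusted p = 9.007e-08) and by 0.50 ± 0.10 after LPS (adjusted p = 0.0001065). Spr, sepiapterin reductase, which completes the cofactor, fell by 0.46 ± 0.07 and 0.48 ± 0.06 (adjusted p = 1.602e-06 and 2.157e-07). Gchfr, whose product inhibits GTP cyclohydrolase, fell by 1.14 ± 0.23 after ISO (adjusted p = 0.0001211) and by 0.75 after LPS (adjusted p = 0.002689). At day 7 none of the 7 was called in either arm, beside 0.00636% of all genes after ISO and 9.10% after LPS.

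Gch1 and the transporter Slc7a1 rose together at ISO day 1, and Ddah1 and Ddah2 fell together at LPS day 1, so the bases before their start sites are shown here. They come from RefSeq (GRCm38.p6), which gave windows for 5 of the 10 genes, among them 2 starts of Slc7a1; Nos2, Nos3, Asl, Arg2 and Slc7a2 had no entry. Each line holds the 250 bases before the start site, 5′ to 3′ on the gene's strand, with motif matches in capitals.
Gch1, chr14:47189414-47189663, minus strand: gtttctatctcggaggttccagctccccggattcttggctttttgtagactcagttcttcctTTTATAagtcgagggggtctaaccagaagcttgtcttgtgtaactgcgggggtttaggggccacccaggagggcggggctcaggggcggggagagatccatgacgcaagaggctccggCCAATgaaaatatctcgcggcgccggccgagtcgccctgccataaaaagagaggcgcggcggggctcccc
Slc7a1 first start, chr5:148399905-148400154, minus strand: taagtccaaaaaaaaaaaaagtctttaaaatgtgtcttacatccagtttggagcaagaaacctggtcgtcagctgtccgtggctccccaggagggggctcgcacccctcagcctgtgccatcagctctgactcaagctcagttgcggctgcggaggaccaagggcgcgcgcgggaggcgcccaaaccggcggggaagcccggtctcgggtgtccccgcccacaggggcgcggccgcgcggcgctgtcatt
Slc7a1 second start, chr5:148392816-148393065, minus strand: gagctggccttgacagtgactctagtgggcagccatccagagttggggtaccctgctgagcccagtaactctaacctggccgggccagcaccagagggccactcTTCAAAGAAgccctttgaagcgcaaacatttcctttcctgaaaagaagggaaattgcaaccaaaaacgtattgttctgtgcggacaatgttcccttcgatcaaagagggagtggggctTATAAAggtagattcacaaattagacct
Ddah1, chr3:145758442-145758691, plus strand: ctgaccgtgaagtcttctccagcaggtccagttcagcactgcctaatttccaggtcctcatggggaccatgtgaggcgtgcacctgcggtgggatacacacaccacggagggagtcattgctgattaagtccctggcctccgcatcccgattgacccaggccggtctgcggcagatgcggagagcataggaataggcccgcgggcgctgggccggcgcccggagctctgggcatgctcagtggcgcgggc
Ddah2, chr17:35058785-35059034, plus strand: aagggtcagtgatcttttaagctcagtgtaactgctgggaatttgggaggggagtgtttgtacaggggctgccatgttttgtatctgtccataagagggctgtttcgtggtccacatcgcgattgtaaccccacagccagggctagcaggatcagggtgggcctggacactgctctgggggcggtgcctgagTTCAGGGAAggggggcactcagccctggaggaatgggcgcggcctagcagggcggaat
Both strands were searched for an NF-kB motif, the STAT motif TTCNNNGAA, an interferon-stimulated response element, the cyclic AMP motif TGACGTCA, CCAAT and TATAAA. With positions counted back from the start site, Gch1 held CCAAT at -70 and TATAAA on the opposite strand (TTTATA) at -188. The first Slc7a1 window and the Ddah1 window held no match. The second Slc7a1 window held TTCAAAGAA, a STAT match, at -146 and TATAAA at -28, and Ddah2 held the STAT match TTCAGGGAA at -58. No matches overlapped. Over 32851 windows of the same length, CCAAT was found in 33.8%, TATAAA in 12.4%, the STAT motif in 7.02%, the interferon motif in 2.98%, the cyclic AMP motif in 1.55% and the NF-kB motif in 0.356%. Matches are letters only and show no binding.

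Ass1 (ENSMUSG00000076441, chr2:31470207-31520672, plus strand) encodes argininosuccinate synthase, which starts the return of citrulline to arginine. At LPS baseline it held 1.71, 1.42, 1.17 and 1.78 TPM, and at LPS day 1 it held 2.34, 1.85, 2.93 and 2.72 TPM. The day 1 libraries were all above the baseline ones, by 0.66 ± 0.15 (adjusted p = 0.0005439). At ISO day 1 the libraries held 1.75, 1.76 and 1.51 TPM, within the ISO baseline range of 1.48 to 1.92 TPM, and the change was -0.03 ± 0.17 (adjusted p = 0.8806), with a 95% interval of -0.35 to 0.29. The changes after the 2 agents differed by 0.69 ± 0.22 (adjusted p = 0.01788), which lost its call without the count filter (adjusted p = 0.0599). Gm5424 is 99.5% identical to Ass1 over 1240 bases and held 9.63 to 35.5 reads per library, so the split of reads between them is uncertain. Its own change at LPS day 1 was 0.46 ± 0.30 (adjusted p = 0.1795). The sum of both was 2.30 ± 0.351 TPM (SD, n = 4) at LPS baseline and 3.49 ± 0.321 TPM (SD, n = 4) at LPS day 1. By LPS day 7 Ass1 had declined again, by 0.45 against day 1 (adjusted p = 0.01117), and its difference from baseline was 0.21 (adjusted p = 0.4474).

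Asl (ENSMUSG00000025533, chr5:130011258-130029247, minus strand) encodes argininosuccinate lyase, which completes the recycling step. Its ISO baseline libraries held 2.31, 3.14, 2.24 and 3.49 TPM and its ISO day 1 libraries 2.95, 2.73 and 2.82 TPM, which overlapped. On counts the change was 0.29 ± 0.12 (adjusted p = 0.0465), a call that was lost with DESeq2 (adjusted p = 0.08083), without the count filter (adjusted p = 0.1788), with library totals, with the groups alone, and without any 1 of 5 libraries: ISO baseline replicates 1, 2 and 4 and ISO day 1 replicates 1 and 3. On the log2(TPM + 0.1) scale it was 0.05 (adjusted p = 0.8728). The effective length assigned to Asl ranged from 863 to 1813 bases between libraries, so its TPM and counts need not move together. At LPS day 1 Asl ranged from 2.04 to 3.77 TPM against 2.14 to 3.40 TPM at baseline (change 0.19, adjusted p = 0.1478), and no day 7 change was called.

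Arg2 (ENSMUSG00000021125, chr12:79130777-79156301, plus strand), the mitochondrial arginase, was close to the detection limit in every group. Over each group it had 2 reads at ISO baseline, 10 at ISO day 1, 2 at ISO day 7, 2 at LPS baseline, 9 at LPS day 1 and 2 at LPS day 7. Of the 10 reads at ISO day 1, 9 came from replicate 2. Scaled to library totals, the ISO day 1 to baseline ratio was 6.51 (95% exact interval 1.39 to 61.1), and without replicate 2 it was 1.04 (0.0176 to 19.9). The LPS day 1 ratio was 4.60 (0.953 to 43.8). These intervals cover counting error only. Arg2 exons share 285 identical bases with the overlapping gene Vti1b, which held 934 to 1394 reads per library.

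The cytosolic arginase Arg1, a gene on the list of other arginine enzymes, was present almost only at day 1. It held 3.33, 2.77 and 1.00 TPM at ISO day 1 and 0.0483 TPM on average at ISO baseline. Those means rest on 206 against 3 reads, a ratio of 89.4 after scaling to library totals (95% exact interval 30.2 to 437). At LPS day 1 it had 34 reads against 0 at LPS baseline, which is at least 11.6-fold higher when LPS baseline is set to 3 counts in all. Neutrophil markers, given above with Nos2, were high in the same groups, and their part in the Arg1 level was not tested.

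Ddah1 (ENSMUSG00000028194, chr3:145758675-145894277, plus strand) and Ddah2 (ENSMUSG00000007039, chr17:35059035-35062095, plus strand) encode the hydrolases that clear asymmetric dimethylarginine, an inhibitor of the synthases. Ddah1 held 2.10, 1.61, 2.15 and 2.23 TPM at LPS baseline and 1.26, 0.728, 1.19 and 1.48 TPM at LPS day 1. The groups did not overlap, and Ddah1 fell by 0.77 ± 0.17 (adjusted p = 0.0004759). At ISO day 1 it stood at 2.55, 2.31 and 1.91 TPM against 1.79 to 2.28 TPM at baseline, a change of 0.37 ± 0.18 (adjusted p = 0.06896) that was called only with the groups fitted alone (adjusted p = 0.01234). The changes after LPS and ISO differed by -1.14 ± 0.25 (adjusted p = 0.0008259; on the log2(TPM + 0.1) scale adjusted p = 0.06282). At ISO day 7 the spread was the widest of any group, at 1.19, 2.34, 3.97 and 1.73 TPM. The value of 3.97 TPM belonged to replicate 3, the library with high fibroblast and macrophage markers. The processed pseudogene Rpl36a-ps2 overlaps the Ddah1 gene span on the same strand and held 199.7 to 334.9 reads per library at ISO baseline, 439.1 to 701.5 at ISO day 1, 274.7 to 322.9 at LPS baseline and 353.6 to 534.8 at LPS day 1.

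Ddah2 held 9.34, 8.83, 13.7 and 14.3 TPM at LPS baseline and 7.22, 3.40, 10.3 and 10.0 TPM at LPS day 1. Replicates 3 and 4 of day 1 lay within the baseline range, and replicate 2 far below it. Ddah2 fell by 0.56 ± 0.19 (adjusted p = 0.01478). That call was lost without LPS day 1 replicate 2 (-0.35, adjusted p = 0.05142), without LPS baseline replicate 3 (adjusted p = 0.05397) and with the groups fitted alone (adjusted p = 0.06303). At ISO day 1 the libraries held 7.00, 8.79 and 8.28 TPM against 9.55 to 11.4 TPM at baseline, without overlap. The change of -0.31 ± 0.21 did not pass the test (adjusted p = 0.207), except with the groups fitted alone (adjusted p = 0.01359). At LPS day 7 Ddah2 reached 16.2, 16.1, 20.5 and 18.9 TPM, above all baseline libraries, with a change of 0.40 ± 0.19 (adjusted p = 0.1948; adjusted p = 0.02916 with the groups alone). From LPS day 1 to day 7 it rose by 0.96 ± 0.19 (adjusted p = 0.0001352).

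Both hydrolases together summed to 13.6 ± 3.07 TPM (SD, n = 4) at LPS baseline, 8.90 ± 3.49 TPM (SD, n = 4) at day 1 and 20.2 ± 2.36 TPM (SD, n = 4) at day 7. Ddah1 made up 16.4% of the sum at ISO baseline and 22.1% at ISO day 1. In the LPS arm it made up 15.2% at baseline, 13.9% at day 1 and 11.4% at day 7, where single libraries (9.62% to 13.1%) lay below those of baseline (13.5% to 18.3%). Smooth muscle and pericyte markers were lower at LPS day 1 as well, summing to 196 to 313 TPM against 350 to 439 TPM at baseline, with 6 of 8 called lower; their part in the hydrolase levels was not tested. Enzymes that place the methyl groups on arginine were raised in part. Of 10 genes on that list 8 were tested. At ISO day 1, 5 were called higher and 0 lower, beside 32.9% and 32.8% of all genes. At LPS day 1, 4 were called higher and 2 lower, beside 33.2% and 33.0% of all genes. Prmt1, the main type I arginine methyltransferase, rose by 0.77 ± 0.10 after ISO (adjusted p = 2.836e-07) and by 0.53 ± 0.09 after LPS (adjusted p = 2.102e-05). Prmt6 rose by 0.64 ± 0.14 and 1.22 ± 0.13 (adjusted p = 0.0004425 and 3.453e-08), while Prmt2 fell after LPS by 0.79 ± 0.14 (adjusted p = 3.03e-05). The list medians were 0.25 and 0.31.

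Slc7a1 (ENSMUSG00000041313, chr5:148327410-148399904, minus strand) encodes the widely expressed cationic amino acid transporter CAT-1. Its ISO baseline libraries held 8.59, 11.7, 10.2 and 13.2 TPM, and its ISO day 1 libraries held 19.7, 19.2 and 15.3 TPM. There was no overlap, and Slc7a1 rose by 0.70 ± 0.12 (adjusted p = 1.595e-05). After LPS it stayed between 9.54 and 10.9 TPM at day 1, against 7.70 to 10.7 TPM at baseline, a change of 0.18 ± 0.11 (adjusted p = 0.1538) with a 95% interval of -0.04 to 0.40. The agents differed by -0.52 ± 0.16 (adjusted p = 0.01309). At ISO day 7 the libraries held 8.65 to 10.6 TPM, a change of -0.23 (adjusted p = 0.9018).

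Slc7a2 (ENSMUSG00000031596, chr8:40862396-40922308, plus strand), whose CAT-2 products include a transporter known from activated macrophages, showed the largest change of the set. Its LPS baseline libraries held 0.310, 0.483, 0.284 and 0.436 TPM, and its LPS day 1 libraries held 2.97, 2.69, 2.19 and 2.74 TPM. The lowest day 1 library was above the highest library of any other group. A stretch of 150 bases is 90.7% identical to Zdhhc3, which held 1060 to 1739 reads per library. Slc7a2 rose by 2.95 ± 0.22 (adjusted p = 5.961e-11). At ISO day 1 it held 0.798, 0.536 and 0.549 TPM against 0.417 to 0.71 TPM at baseline, and the change of 0.33 ± 0.24 (95% interval -0.14 to 0.79) did not pass the test (adjusted p = 0.2379). The agents differed by 2.62 ± 0.33 (adjusted p = 1.189e-06), and this difference was called under every alternative run, with values of 2.35 to 2.87.

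At LPS day 7 Slc7a2 held 1.15, 0.561, 0.827 and 0.662 TPM, all above the LPS baseline libraries but partly within the range of the ISO baseline. The change of 0.89 ± 0.23 was called (adjusted p = 0.01762), the only one of the 9 genes (11.1%) beside 9.10% of all genes (5.96% higher, 3.13% lower). It was lost without LPS baseline replicate 1 or 3 (adjusted p = 0.06059 and 0.05123) and without LPS day 7 replicate 1 or 3 (adjusted p = 0.05446 and 0.06481). The LPS baseline itself stood 0.60 ± 0.24 below the ISO baseline (adjusted p = 0.3157). Of the summed Slc7a1 and Slc7a2 TPM, Slc7a2 took 3.98% ± 1.43 (SD, n = 4) in LPS baseline hearts, 20.3% ± 2.56 (SD, n = 4) on day 1 and 7.87% ± 2.84 (SD, n = 4) on day 7. In the ISO arm it stayed between 2.72% and 8.67% in single libraries, and Slc7a1 was the more abundant of the pair in all 23 libraries. The summed level of macrophage markers was lowest, 71.4 to 94.2 TPM, in the LPS day 1 libraries in which Slc7a2 was highest. Single markers differed, with 1 of 10 called higher and 5 lower against LPS baseline. Lyz2 went from 60.9 TPM at LPS baseline to 9.53 TPM at LPS day 1, and Fcgr1 from 0.745 to 2.0 TPM. Neutrophil sums of those libraries were 16.4 to 26.7 TPM against 0.597 to 0.968 TPM at LPS baseline (6 markers called higher, 0 lower). T and NK cell sums were 0.774 to 1.17 against 0.407 to 0.908 TPM (2 higher, 0 lower). Fibroblast sums were 385 to 542 against 365 to 463 TPM (1 higher, 6 lower), with mean Dcn going from 201 to 341 TPM. Endothelial sums were 322 to 396 against 298 to 346 TPM (4 higher, 3 lower). Which cells held Slc7a2 was not tested.

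Of 6 other arginine transport genes 4 were tested, and in each arm 2 were called higher and 1 lower at day 1. Over all genes, 65.7% were called after ISO and 66.2% after LPS. Slc3a2, the heavy chain that carries several amino acid exchangers to the membrane, rose by 1.955 ± 0.09 after ISO (adjusted p = 3.984e-14) and by 1.00 ± 0.08 after LPS (adjusted p = 5.115e-10). Its partner Slc7a6, which exchanges cationic for neutral amino acids, went from 2.57 ± 0.351 TPM (SD, n = 4) to 10.2 TPM after ISO and from 2.54 to 19.7 TPM after LPS, with changes of 1.59 ± 0.18 and 2.59 ± 0.17 (adjusted p = 5.029e-08 and 5.262e-12), larger after LPS by 1.00 ± 0.24 (adjusted p = 0.002262). Slc7a4 fell by 1.80 ± 0.27 and 0.74 ± 0.23 (adjusted p = 3.962e-06 and 0.008242).

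Of 16 further arginine enzymes 11 were tested; 3 were called higher and 6 lower after ISO (beside 65.7% of all genes called), and 2 higher and 5 lower after LPS (beside 66.2%), with medians of -0.64 and -0.14. Gatm and Gamt, which make creatine from arginine and glycine, fell by 2.21 ± 0.26 and 1.35 ± 0.16 after LPS (adjusted p = 8.58e-08 and 9.93e-08) and by 1.60 ± 0.26 and 1.52 ± 0.17 after ISO (adjusted p = 1.181e-05 and 4.89e-08), with no difference between the agents called (adjusted p = 0.2159 and 0.5922). Gamt was higher than baseline at LPS day 7, by 0.68 ± 0.14 (adjusted p = 0.003485). After ISO, genes of proline and ornithine breakdown fell too, with Aldh4a1 at -1.18 ± 0.09 (adjusted p = 1.713e-10), Prodh at -1.67 ± 0.18 (adjusted p = 2.914e-08) and Oat at -0.64 ± 0.07 (adjusted p = 3.981e-08). At LPS day 1 Aldh4a1 was also called lower, at -0.38 ± 0.08 (adjusted p = 0.0002622). Prodh and Oat were not called there (0.07 and -0.14, adjusted p = 0.6815 and 0.06579). At LPS day 7 Aldh4a1 and Oat were called lower, at -0.30 and -0.26 (adjusted p = 0.02421 and 0.0116).

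All 10 polyamine genes were tested, of which 4 were called higher and 3 lower after ISO and 3 higher and 1 lower after LPS. Beside these stand 65.7% of all genes called after ISO and 66.2% after LPS. Odc1, ornithine decarboxylase, which draws on the ornithine that arginases make, rose by 1.76 ± 0.16 after ISO (adjusted p = 3.285e-09) and by 1.24 ± 0.15 after LPS (adjusted p = 2.634e-07). Srm, spermidine synthase, rose by 1.81 ± 0.15 and 0.97 ± 0.15 (adjusted p = 6.936e-10 and 4.973e-06). Azin1 rose by 1.35 ± 0.12 after ISO (adjusted p = 1.302e-09) and was not called after LPS (-0.21 ± 0.11, adjusted p = 0.104). Its changes differed between the agents by -1.56 ± 0.16 (adjusted p = 1.018e-07). Sat1, which acetylates polyamines for export and breakdown, rose by 1.51 ± 0.25 and 1.43 ± 0.24 (adjusted p = 1.418e-05 and 1.318e-05). Amd1, which makes the aminopropyl donor, was called lower in both arms, at -0.56 ± 0.17 and -0.75 ± 0.16 (adjusted p = 0.006425 and 0.0002603; chosen after its values were seen). The list median, -0.01 after ISO and -0.07 after LPS, was near that of all genes.

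**Figure D4:**
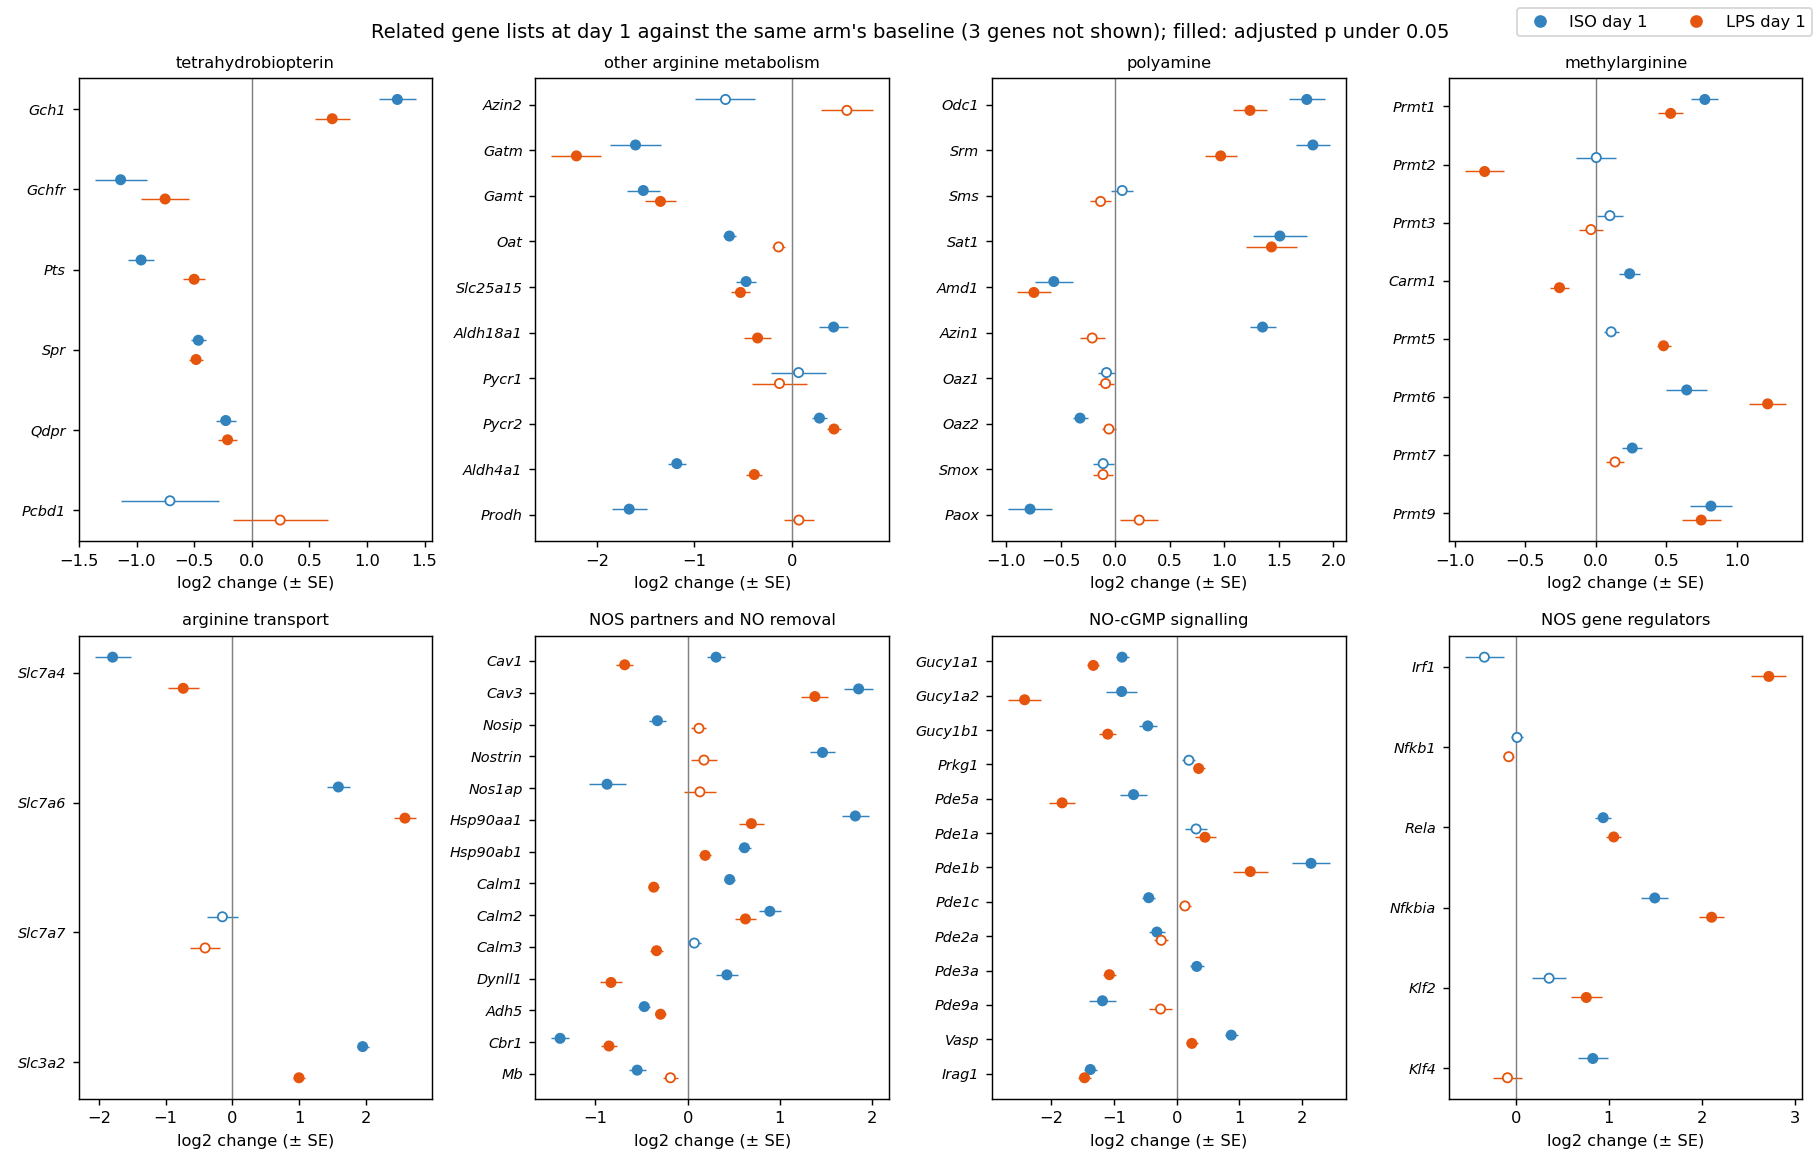
Log2 change ± SE at day 1 against the same arm's baseline for tested genes of 8 related lists, with ISO in blue, LPS in orange and filled points for adjusted p under 0.05. Arg1 is left out because its LPS baseline held 0 reads, and 2 other genes are not shown. Gch1 is the only filled point right of 0 among the tetrahydrobiopterin genes, and Irf1 lies right of 0, at 2.72, after LPS with an open point after ISO.

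Proteins that bind the synthases or remove nitric oxide did not move as a group. Of 14 genes, all tested, 8 were called higher and 5 lower after ISO, and 4 higher and 6 lower after LPS. The shares of all genes were 32.9% higher and 32.8% lower after ISO, and 33.2% and 33.0% after LPS. Cav3, the muscle caveolin, rose by 1.86 ± 0.15 and 1.38 ± 0.15 (adjusted p = 5.238e-10 and 2.028e-08). Cav1, the caveolin that holds the endothelial synthase inactive, was 0.31 ± 0.10 higher after ISO (adjusted p = 0.009892), fell by 0.68 ± 0.09 after LPS (adjusted p = 1.222e-06) and was 0.61 ± 0.09 above baseline at LPS day 7 (adjusted p = 0.0003051). Its day 1 changes differed between the agents by -0.99 ± 0.14 (adjusted p = 5.44e-06). The chaperone gene Hsp90aa1, whose product assists the endothelial synthase, rose by 1.82 ± 0.15 after ISO (adjusted p = 3.356e-10). After LPS it rose by 0.69 ± 0.14 (adjusted p = 0.0001178). Nostrin, an adaptor in trafficking of that synthase, rose by 1.47 ± 0.14 after ISO (adjusted p = 4.934e-09). It was not called after LPS (0.18, adjusted p = 0.261). Cbr1, which reduces S-nitrosoglutathione as well as carbonyl substrates, fell by 1.38 ± 0.09 after ISO and 0.85 ± 0.08 after LPS (adjusted p = 1.788e-11 and 4.936e-09).

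Downstream of nitric oxide, subunits of its receptor, soluble guanylate cyclase, were lower at day 1. Of 13 genes of nitric oxide and cyclic GMP signalling, all tested, 3 were called higher and 8 lower after ISO, and 4 higher and 6 lower after LPS. Among all genes, 32.9% were called higher and 32.8% lower after ISO, and 33.2% and 33.0% after LPS. The list medians were -0.45 and -0.26. Gucy1a1, the alpha subunit, fell by 0.87 ± 0.10 after ISO (adjusted p = 1.443e-07) and by 1.33 ± 0.10 after LPS (adjusted p = 4.267e-11). Gucy1a2 fell by 2.43 ± 0.26 after LPS (adjusted p = 2.629e-08) and by 0.88 ± 0.25 after ISO (adjusted p = 0.004051). Irag1 (Mrvi1 in the annotation), a target of the cyclic GMP kinase that limits calcium release, fell by 1.38 ± 0.11 and 1.47 ± 0.10 (adjusted p = 2.521e-10 and 1.27e-11). Pde3a, a phosphodiesterase that cyclic GMP inhibits, fell by 1.07 ± 0.11 after LPS (adjusted p = 1.089e-08) but rose by 0.32 ± 0.12 after ISO (adjusted p = 0.01845), a difference of -1.39 ± 0.16 (adjusted p = 3.257e-07). Pde1b, one that breaks cyclic GMP down, rose by 2.14 ± 0.30 after ISO (adjusted p = 1.298e-06) and by 1.17 ± 0.28 after LPS (adjusted p = 0.0008281). The receptor subunits are known from smooth muscle and pericytes, whose markers were lower at LPS day 1 (above). At ISO day 1 these markers summed to 395 to 566 TPM against 300 to 416 TPM at baseline. Of the 8 markers, 3 were called higher and 4 lower there, with a median log2 change of -0.35. Mean Acta2 went from 108 to 327 TPM, while Rgs5 went from 124 to 72.4 TPM and Abcc9 from 66.9 to 24.8 TPM. The part of these cells was not tested. None of the 13 was called at day 7 in either arm, beside 0.00636% of all genes after ISO and 9.10% after LPS.

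Among transcription factors and feedback genes known to act on the synthase genes, Irf1 and Nfkbia rose after LPS, and the change of Irf1 differed between the agents. Of 7 genes, all tested, 3 were called higher and 1 lower after ISO, and 5 higher and 0 lower after LPS, with medians of 0.36 and 1.05. Calls over all genes were 32.9% higher and 32.8% lower after ISO, and 33.2% and 33.0% after LPS. Irf1, an interferon-induced factor that acts on Nos2, rose by 2.72 ± 0.19 after LPS (adjusted p = 2.097e-11) and was -0.34 ± 0.21 from baseline after ISO (adjusted p = 0.1584). The changes of Irf1 differed by 3.06 ± 0.28 (adjusted p = 1.405e-08). Nfkbia, the NF-kB inhibitor that NF-kB itself induces, rose after both, by 1.5 ± 0.14 and 2.11 ± 0.14 (adjusted p = 5.678e-09 and 8.034e-12). Nos2 was called lower than baseline at day 1 in both arms, at -1.50 ± 0.21 after ISO and -0.54 ± 0.17 after LPS. The part of Irf1 and Nfkbia in the Nos2 levels was not tested.

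Between day 1 and day 7 most of these changes ran back. After ISO, 5 of the 9 genes were called between the 2 days (beside 65.1% of all genes, 33.2% higher and 31.9% lower): Nos2 rose by 1.71 ± 0.21 and Ddah2 by 0.54 ± 0.21, while Nos3, Gch1 and Slc7a1 fell by 0.94 ± 0.10, 1.26 ± 0.16 and 0.94 ± 0.12. At ISO day 7 none of the 9 was called against baseline by edgeR (0 calls, beside 0.00636% of all genes). At an unadjusted p under 0.05 there were 2, Asl at 0.31 ± 0.11 and Slc7a1 at -0.23 ± 0.11, and DESeq2 called 0. The count was also 0 without replicate 3 of ISO day 7. After LPS, 8 were called between the days (beside 66.4% of all genes, 33.9% higher and 32.5% lower): Nos2, Ddah1 and Ddah2 rose by 0.97 ± 0.17, 0.76 ± 0.17 and 0.96 ± 0.19, and Slc7a2, Gch1, Ass1, Nos3 and Slc7a1 fell by 2.05 ± 0.20, 0.87 ± 0.15, 0.45 ± 0.15, 0.37 ± 0.10 and 0.37 ± 0.11. With library totals or the log2(TPM + 0.1) scale 5 were called, 3 higher and 2 lower.

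The effect of LPS differed from that of ISO at day 1 for 6 of the 9 genes (66.7%), beside 37.7% of all genes (18.2% higher, 19.5% lower). Nos2, Ass1 and Slc7a2 were relatively higher after LPS, and Nos3, Ddah1 and Slc7a1 relatively lower; the values stand with each gene above. The arms used separate baselines, and arm and any batch cannot be told apart. At day 7 the agents differed for 0 of the 9 genes by edgeR, beside 0.458% of all genes, and DESeq2 also called 0. Slc7a2 alone had an unadjusted p under 0.05 there (0.87 ± 0.32, adjusted p = 0.3783).

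Only Nos2 and Slc7a2 had group means of log2 CPM (counts scaled to library size) that spanned at least 2 over the 6 groups, 2.09 and 2.89. Likeness was the root mean square difference of the 6 group means, each gene centred on its own mean. The 3 genes most like Nos2 were Fam117a (0.0877), Hrh2 (0.108) and Gsap (0.109). Hrh2, the histamine H2 receptor, fell by 1.73 at ISO day 1 and by 1.03 at LPS day 1. The 3 most like Slc7a2 were Gm20633 (0.180), Gm43305 (0.185) and Mlkl (0.197), the last a mediator of necroptosis that rose by 2.82 at LPS day 1 (adjusted p = 1.055e-11) and by 0.86 at ISO day 1 (adjusted p = 0.001). These are descriptions over 6 group means of the same libraries.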

How the data were processed

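Poly-A RNA of 23 mouse hearts in 6 groups was analysed, with groups taken from the labels. Per the file headers, the authors deposited for each library an estimated count of reads per gene, a TPM value and another quantity, the effective length in bases. Per the submitters' processing notes, the tools were DRAGEN, bcl2fastq, limma and edgeR, on the mm10 build. The sources used here give neither an annotation release nor a strand setting. Symbols and coordinates were taken from GENCODE M21 on GRCm38, the same assembly, in which 55141 of the 55487 identifiers were found; the remainder took 0.0146% of a library's reads at most. In the files 9.50% of deposited estimated counts were not whole, and all were rounded.

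The test was the quasi-likelihood F test of edgeR 4.0.16 (R 4.3.3; glmQLFit, glmQLFTest) with TMM scaling and filterByExpr at a minimum count of 10. A single model held 6 group means and 15732 genes, with two-sided p-values adjusted by Benjamini-Hochberg over all of them. The SE is the log2 change over the square root of F. The common biological coefficient of variation was 11.0%. Alternatives were RLE factors, library totals, no count filter, DESeq2 1.42.0, a replicate block, the compared groups alone, log2(TPM + 0.1) with limma 3.58.1, and each library left out. Labels describe separate mice, so p-values measure spread between animals and library making together.

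The 10 genes, the 8 related lists and the 9 marker lists were chosen with earlier results of these data known. All 10 genes are named; from each list, up to 4 called genes with the smallest adjusted p per comparison with baseline; and, for genes whose group means span at least 2, the 3 most alike. Of the genes this rule names, 2 are not reported here. Genes named at another time point for comparison were picked after their values were seen. Sums over the T and NK cell, liver and adipocyte lists were at most 8.64, 1.84 and 7.13 TPM in any library. Marker sums were compared by exact permutation tests (scipy 1.17.1). Ratios between genes were given no test. Exons were compared with all transcripts by blastn 2.17.0, for copies of at least 90% identity over 150 bases. Libraries of the same group always differed by more than sampling noise, with chi-square values of 3.98 or more per degree of freedom.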

Additional observations from a re-analysis of the deposited data

Results flagged for a closer look

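For 6 genes the day 1 change after LPS differed from that after ISO by the test of the difference itself. Slc7a2 differed by 2.62 on the log2 scale, Nos2 by 0.96 and Ass1 by 0.69, all relatively higher after LPS. Ddah1 differed by -1.14, Nos3 by -0.53 and Slc7a1 by -0.52, all relatively lower after LPS. Nos2 and Nos3 moved in the same direction after both agents and differed in size, whereas Slc7a2 and Ass1 were called after LPS alone and Slc7a1 after ISO alone.

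Single libraries far from the rest of their group were looked for in 50 groups of 4 TPM values, and 3 were found; chance gives about 1 in 20. Nos3 was lowest in replicate 1 of ISO day 7, at 7.10 TPM against 9.30 to 9.71 TPM in the others. Arg2 was highest in replicate 4 of ISO baseline, at 0.068 TPM, and in replicate 2 of LPS day 7, at 0.075 TPM, with 0 reads in the other libraries of both groups. Each of these Arg2 values rests on 2 reads. The rule flags any group in which a single library has reads, so the chance rate does not apply to Arg2.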

How the results depend on the processing

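Of 729 values of single genes under the alternatives, 668 kept their direction and their side of the threshold, 20 lost a call, 15 gained one and 26 changed sign; each value that changed sign belonged to a change that was not called. At LPS day 7 against baseline, 1 gene was called, against 2 with library totals, 4 with the groups alone, 2 on the log2(TPM + 0.1) scale and 0 to 1 with a library left out. For LPS day 7 against day 1, 8 became 5 with library totals and 5 on the TPM scale; both scalings shift the median of all genes there (by 0.20 and 0.23). Between baselines, 0 became 1 with the groups alone. Numbers did not pair libraries: deviations of libraries with the same replicate number correlated at -0.118 to 0.161 over 55 pairs, and 7 of 23 correlated best with their own number. With the replicate block 5, 0, 7 and 1 genes were called at ISO day 1, ISO day 7, LPS day 1 and LPS day 7, as without it, and 7 in place of 6 differed between agents at day 1.

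Signs changed as follows; the cause was not tested. On the TPM scale LPS day 7 changes became 0.032 for Gch1, 0.18 for Ddah1 and 0.021 for Slc7a1, and the agent difference of Asl 0.25. Ddah1 at LPS day 7 became 0.16 with library totals and 0.0025 with the groups alone, and Gch1 at ISO day 7 became -0.00085 with DESeq2. With 1 library left out, Ass1 at ISO day 1 ran from -0.11 to 0.047, Gch1, Ass1, Ddah1 and Slc7a2 at ISO day 7 from -0.078 to 0.10, -0.048 to 0.15, -0.12 to 0.27 and -0.15 to 0.23, Asl and Ddah1 at LPS day 7 from -0.019 to 0.10 and -0.10 to 0.063, and the agent difference of Asl from -0.17 to 0.023. Depth limits Arg2 to descriptions.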
